A study of Mus musculus with 16 samples.

Results

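The platelet receptor glycoproteins and their plasma ligand were followed as RNA in mouse hematopoietic stem cells (HSCs) sorted by MAC-1. The 9 genes were taken by name from the 46078 genes of the count table: *Gp1ba*, *Gp1bb*, *Gp9*, *Gp5*, *Gp6*, *Itga2b*, *Itgb3*, *Clec1b* and *Vwf*, and 8 of them held enough counts to be tested. MAC-1 is an integrin of myeloid cells made of CD11b (*Itgam*) and CD18. HSCs (LSK, CD48-, CD150+) of wild-type B6.SJL origin were sorted as SS MAC-1- (3 samples) and SS MAC-1low (3 samples) from untreated mice at steady state. The other populations, 4 week MAC-1- (3 samples), 4 week MAC-1low (4 samples) and 4 week MAC-1+ (3 samples), came from mice 4 weeks after 8000 LSK cells had been transplanted into recipients irradiated with 900 cGy, with donor cells marked by LY5.1 and hosts and support marrow by LY5.2. Transplantation, the irradiated host and the 4 weeks in it are thus shared by the 4 week samples and cannot be told apart. The sources used here do not say whether the samples of a population came from separate mice, so p-values measure the spread between these samples, which may be technical.

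A platelet tethers to an injured vessel wall when the GPIb-IX-V complex on its surface catches von Willebrand factor. Collagen is then sensed by GPVI, podoplanin by CLEC-2, and the integrin αIIbβ3 binds fibrinogen and joins platelets to each other. Megakaryocytes make all of these receptors and von Willebrand factor, but αIIb (CD41) is also found on part of the HSCs, and *Vwf* is known as a mark of HSCs that lean towards platelets. The comparisons ask how this set of genes differed between HSCs sorted by MAC-1 and between regenerating and SS HSCs.

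Total counts lay between 13781278 and 28580658. Levels are CPM, counts scaled to a common total in every sample with edgeR's TMM factors, and 3 counts in a sample, taken as the most that a count of 0 allows, stood for 0.112 to 0.220 CPM, a floor for counting error only. *Itgam* had 96 to 478 counts in the 4 week MAC-1+, 3 to 95 in the 4 week MAC-1low, 0 to 47 in the 4 week MAC-1-, 15 to 30 in the SS MAC-1low and 0 to 5 in the SS MAC-1- samples. In 1 of the samples, 4 week MAC-1+ replicate 3, 8 neutrophil markers summed to 7286 CPM, against 164 and 949 CPM in the other 4 week MAC-1+ samples and 23.1 to 168 CPM in all other samples. For MAC-1+ against MAC-1- HSCs at 4 weeks, the differences and list counts that lean on this sample are given with and without it. The levels per exon length and the correlations are as well. The 8 HSC markers summed to 690 to 889 CPM in the 4 week MAC-1- samples and to 1475 to 3451 CPM in all others, while 6 megakaryocyte and platelet markers summed to 4103 to 6699 CPM in the 4 week MAC-1- samples and to 221 to 1213 CPM elsewhere. Most of the megakaryocyte and platelet sum in 4 week MAC-1- HSCs was the chemokine gene *Pf4*. *Tubb1*, the tubulin of platelets, was at 0 in 15 of 16 samples. Summed erythroid markers stood at 27.2 to 37.1 CPM in 4 week MAC-1- and 91.4 to 209 CPM in 4 week MAC-1+ HSCs, monocyte markers at 0.188 to 8.48 and 21.9 to 125 CPM, and lymphoid markers at 323 to 641 and 16 to 176 CPM. In 4 week MAC-1- HSCs the lymphoid sum was *Nkg7* alone, with the other 7 markers at 0.

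The genes lie on chromosomes 6, 7, 11 and 16 (coordinates of GRCm38, from GENCODE M21, matched here by Ensembl identifier). *Gp1ba* (ENSMUSG00000050675, chr11:70639122-70642036), *Itga2b* (ENSMUSG00000034664, chr11:102453297-102470122) and *Itgb3* (ENSMUSG00000020689, chr11:104608000-104670476) share chromosome 11. *Gp9* (ENSMUSG00000030054, chr6:87778072-87779768), *Vwf* (ENSMUSG00000001930, chr6:125546774-125686679) and *Clec1b* (ENSMUSG00000030159, chr6:129397297-129409335) share chromosome 6. *Gp1bb* (ENSMUSG00000050761, chr16:18620317-18622403) and *Gp5* (ENSMUSG00000047953, chr16:30307685-30310779) lie on chromosome 16, and *Gp6* (ENSMUSG00000078810, chr7:4363965-4397744) on chromosome 7. Exons of *Sept5* and Gm49601 on the same strand cover 1938 of the 2087 exon bases of *Gp1bb*, which leaves 149 of its own. *Sept5* was listed at 0 in 15 of 16 samples and at 6 counts in the remaining one, so the *Gp1bb* counts, which ran from 0 to 2591, depend on how shared reads were assigned and are uncertain. In *Clec1b*, 184 of 5103 exon bases are shared with *Clec9a*, and the other 7 genes share none.

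The stretch of 250 bases before the start of transcription is given for *Itga2b* and *Gp9*, whose 4 week MAC-1- samples lay above all other samples, and for *Gp1ba* and *Gp5*, the partners of *Gp9* in the receptor complex. The sequences are those of RefSeq (GRCm38.p6), written 5′ to 3′ on the strand of the gene, and capitals mark the letters of 2 motifs searched on both strands. These were a GATA site, spelled AGATAA or AGATAG with its variants TGATAA or TGATAG and bound by the GATA factors of megakaryocytes and red cells, and the core GGAAG of the ETS site, bound by factors such as FLI1. No base fell in matches of both motifs.
Itga2b (chr11:102469884-102470133, minus strand): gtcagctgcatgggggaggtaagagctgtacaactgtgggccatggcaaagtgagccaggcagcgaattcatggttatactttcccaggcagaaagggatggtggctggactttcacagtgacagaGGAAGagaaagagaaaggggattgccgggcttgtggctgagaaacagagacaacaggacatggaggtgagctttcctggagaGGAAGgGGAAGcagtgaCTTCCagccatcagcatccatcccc
Gp9 (chr6:87777820-87778069, plus strand): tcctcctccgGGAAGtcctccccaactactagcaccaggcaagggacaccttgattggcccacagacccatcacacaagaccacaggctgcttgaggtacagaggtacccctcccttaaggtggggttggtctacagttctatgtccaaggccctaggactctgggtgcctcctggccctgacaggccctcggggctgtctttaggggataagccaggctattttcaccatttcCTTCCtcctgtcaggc
Gp1ba (chr11:70638872-70639121, plus strand): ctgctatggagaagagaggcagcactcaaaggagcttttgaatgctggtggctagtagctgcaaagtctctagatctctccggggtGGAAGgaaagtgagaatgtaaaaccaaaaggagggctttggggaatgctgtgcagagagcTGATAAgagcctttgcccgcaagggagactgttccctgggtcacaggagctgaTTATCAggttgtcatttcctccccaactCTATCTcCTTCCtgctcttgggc
Gp5 (chr16:30310782-30311031, minus strand): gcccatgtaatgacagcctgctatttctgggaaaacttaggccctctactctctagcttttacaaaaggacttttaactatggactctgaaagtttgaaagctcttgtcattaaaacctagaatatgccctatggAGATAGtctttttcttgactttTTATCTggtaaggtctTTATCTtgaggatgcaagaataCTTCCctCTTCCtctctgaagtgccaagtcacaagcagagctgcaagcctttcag
The table held a stretch for 7 of the 9 genes, with none for *Itgb3* and *Vwf*. *Gp1ba* and *Gp5* each held 3 GATA and 2 ETS matches, *Itga2b* 0 GATA and 4 ETS matches and *Gp9* 0 GATA and 2 ETS matches, while *Clec1b* and *Gp6* each held 1 GATA and 0 ETS matches and *Gp1bb* 1 GATA and 2 ETS matches. A GATA match was present in 5 of the 7 and in 26.5% of all 32851 stretches, an ETS match in 5 of the 7 and in 64.1% of all, and both in 3 of the 7 and in 15.8% of all. Of the *Itga2b* stretch, 180 bases lie in an exon of a transcript of *Itga2b* without a coding frame, and the whole *Gp1bb* stretch lies in exons of *Sept5*, which is why it is not shown. A match describes these letters and is no evidence of binding in these cells.

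**Figure D1:**
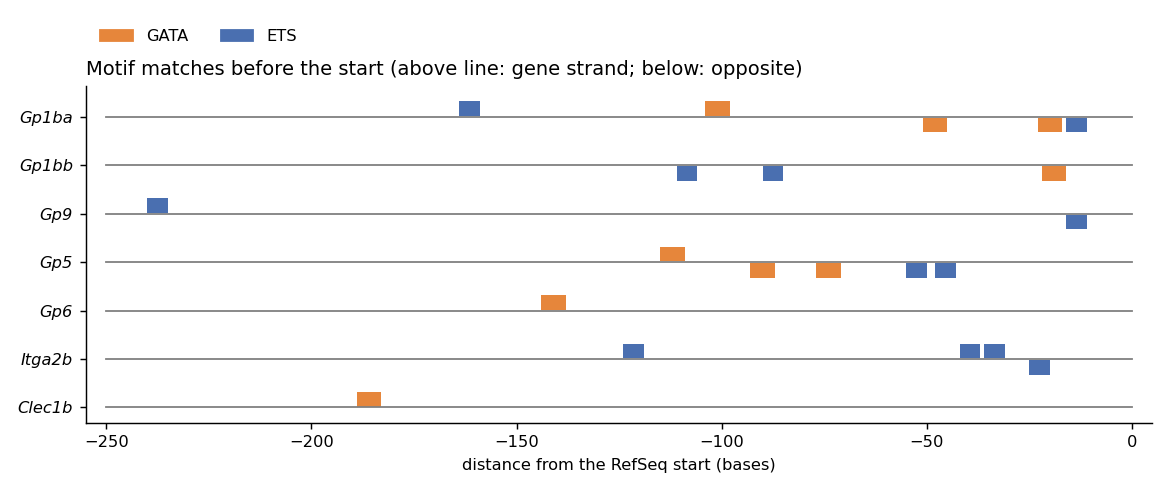
Matches to the GATA motif (orange) and the ETS motif (blue) in the 250 bases before the RefSeq start of 7 genes, by distance from the start in bases, above the line on the strand of the gene and below it on the opposite strand. *Gp1ba* and *Gp5* hold 3 GATA matches each, while *Gp9* and *Itga2b* hold 0.

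*Itga2b*, the αIIb chain that gives megakaryocytes their fibrinogen receptor, was detected in every sample. In 4 week MAC-1- HSCs it stood at 45.9, 59.8 and 55.5 CPM, and in the 4 week MAC-1+ samples at 2.80, 2.51 and 6.95 CPM. The 4 week MAC-1low samples had 12, 5.27, 9.14 and 8.23 CPM, the SS MAC-1- samples 6.66, 14.1 and 20.1 CPM and the SS MAC-1low samples 20.3, 25.8 and 21.9 CPM. All 4 week MAC-1- samples lay above all others. The SS MAC-1low samples came next, by a narrow gap of 20.3 CPM or more against 20.1 CPM or less in SS MAC-1- HSCs. The remaining neighbours in the order, SS MAC-1- and then both 4 week fractions with MAC-1, overlapped. Against 4 week MAC-1- HSCs, *Itga2b* fell in 4 week MAC-1+ HSCs by 3.71 on the log2 scale (SE 0.71, edgeR adjusted p = 0.0125). Without 4 week MAC-1+ replicate 3, the highest of its group, the log2 fold change was -4.31 (adjusted p = 0.0239, edgeR), and with low genes kept in the fit it was not called (edgeR adjusted p = 0.137).

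*Itgb3*, the β3 chain that pairs with αIIb and also with αv, did not follow *Itga2b* in each sample. It had 9.16, 26.1 and 14.2 CPM in 4 week MAC-1-, 1.35, 6.01, 5.29 and 2.66 CPM in 4 week MAC-1low and 1.56, 1.94 and 21.3 CPM in 4 week MAC-1+ HSCs. The last of these is the sample with the neutrophil markers. In SS HSCs it had 2.27, 2.88 and 1.33 CPM without and 21.8, 0.112 and 8.59 CPM with low MAC-1, so that the 3 SS MAC-1low samples spanned most of the range of all 16. *Itgb3* did not differ past the threshold between MAC-1+ and MAC-1- HSCs at 4 weeks (log2 fold change -0.99 ± 1.4 SE, edgeR adjusted p = 0.87), and the value was -3.20 without 4 week MAC-1+ replicate 3 (adjusted p = 0.488, edgeR).

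*Gp1bb*, the GPIbβ chain held to GPIbα by a disulfide bond, showed the widest contrast of the set, with the reservation on its shared exons. It had 121, 98.1 and 139 CPM in 4 week MAC-1- HSCs and a count of 0 in all 3 samples of 4 week MAC-1+ HSCs. The 4 week MAC-1low samples had 17.3, 24.9, 7.34 and 5.09 CPM, the SS MAC-1- samples 28.3, 22.4 and 65.2 CPM and the SS MAC-1low samples 7.50, 18.3 and 0 CPM. The 4 week MAC-1- samples were above all others, and every other pair of neighbours in the order (SS MAC-1-, 4 week MAC-1low, SS MAC-1low, 4 week MAC-1+) overlapped. Set against a floor of 3 counts per sample, the level in 4 week MAC-1+ HSCs was at least 800-fold lower than in 4 week MAC-1- HSCs (119.5 ± 20.7 CPM, SD, n = 3, adjusted p = 0.00661, edgeR). This bound became 724-fold without 4 week MAC-1+ replicate 3. The level was at least 57-fold lower than in SS MAC-1low HSCs (8.58 ± 9.17 CPM, SD, n = 3, adjusted p = 0.0581, edgeR), a bound that became 25-fold without SS MAC-1low replicate 2 and 86-fold without SS MAC-1low replicate 3. The second call was lost, at an adjusted p of 0.107 to 0.151 in edgeR, when SS MAC-1low replicate 1 or 2 or any 4 week MAC-1+ sample was left out.

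*Gp9*, the GPIX chain that steadies the complex on the membrane, was at 53.6, 74.4 and 89.7 CPM in 4 week MAC-1- HSCs. The 4 week MAC-1+ samples had 3.60, 3.26 and 0 CPM, the 0 being replicate 3. With 10.6, 33.3, 4.16 and 22.0 CPM the 4 week MAC-1low samples lay between both without overlap. SS MAC-1- HSCs had 23.7, 10.6 and 14.4 CPM and SS MAC-1low HSCs 33.4, 0.112 and 13.8 CPM, the second of these from 2 counts. The difference between MAC-1+ and MAC-1- HSCs at 4 weeks (log2 fold change -4.99, standard error 1.65) had an adjusted p of 0.176 in edgeR, 0.00671 in DESeq2 and 0.0627 in limma-voom. Without 4 week MAC-1+ replicate 3, the sample at 0, the log2 fold change was -4.37 (adjusted p = 0.273, edgeR). The difference passed in edgeR when SS MAC-1low replicate 2, the sample at 2 counts, was left out (adjusted p = 0.0889, edgeR).

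*Gp1ba*, the chain that binds von Willebrand factor, and *Gp5*, the chain cleaved by thrombin, varied widely among samples of 1 population. *Gp1ba* had 8.72, 6.02 and 23.3 CPM in 4 week MAC-1- HSCs, 0, 24.2 and 11.9 CPM in SS MAC-1- HSCs and 0, 0.564 and 9.16 CPM in 4 week MAC-1+ HSCs. It ranged from 0.459 to 8.78 CPM in the 4 week MAC-1low and from 0.103 to 6.67 CPM in the SS MAC-1low samples, and all neighbours in the order of the means overlapped. *Gp5* had 7.65, 15.1 and 10.4 CPM in 4 week MAC-1- HSCs and 0.142, 0 and 5.88 CPM in 4 week MAC-1+ HSCs, without overlap. In SS MAC-1- HSCs it had 0.806, 0.0523 and 27.0 CPM, so that a single sample made the mean, while the SS MAC-1low samples had 2.68 to 6.15 CPM and the 4 week MAC-1low samples 0.786 to 8.78 CPM. In 4 week MAC-1+ HSCs both genes were highest in replicate 3. Without this sample the log2 fold change of *Gp1ba* against 4 week MAC-1- HSCs went from -1.96 to -5.44 (adjusted p = 0.804 and 0.491, edgeR). That of *Gp5* went from -2.45 to -7.09 (adjusted p = 0.682 and 0.299, edgeR). The remaining 4 week MAC-1+ samples had 3 and 0 counts of *Gp5*, at or under the floor, so the size of -7.09 is uncertain.

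*Vwf*, the ligand, was detected in every sample. It had 83.1, 101 and 116 CPM in 4 week MAC-1- HSCs, above every sample of the other populations, which ran from 8.32 to 48.6 CPM and overlapped each other. The 4 week MAC-1+ samples had 48.6, 18.9 and 11.6 CPM, the 4 week MAC-1low samples 23.4, 38.5, 14.4 and 31.2 CPM, the SS MAC-1- samples 21.2, 8.32 and 32.9 CPM and the SS MAC-1low samples 38.7, 26.5 and 22.1 CPM. Against 4 week MAC-1- HSCs the log2 fold change was -1.92 (standard error 0.62) in 4 week MAC-1+ HSCs, with an adjusted p of 0.164 in edgeR, 0.0226 in DESeq2 and 0.0279 in limma-voom. It was -2.71 without 4 week MAC-1+ replicate 1, the highest of its group (adjusted p = 0.066, edgeR), and -1.54 without replicate 3 (adjusted p = 0.395, edgeR). Endothelial cells also make *Vwf*. Their 10 markers summed to 93.7 to 161 CPM in 4 week MAC-1- HSCs and to 147 to 322 CPM in the other populations, and edgeR called 0 of the 6 that could be tested between MAC-1+ and MAC-1- HSCs at 4 weeks, with *Emcn* alone at an unadjusted p below 0.05 (adjusted p = 0.329, edgeR). Of all genes tested, edgeR called 3.25% there, and 13.4% had an unadjusted p below 0.05. *Cdh5* and *Cldn5* were at 0 in all 4 week MAC-1- and all 4 week MAC-1+ samples. *Plvap* reached 92 counts in a 4 week MAC-1- sample and was at 0 in all 4 week MAC-1+ samples. The part of endothelial cells in the *Vwf* values was not tested.

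*Gp6*, the collagen receptor, was the member not detectable at this depth. It had 1 count in 4 week MAC-1- replicate 1, 1 count in 4 week MAC-1+ replicate 3 and 0 in the other 14 samples, under the floor of 3 counts throughout, and was not tested. Its signalling partner *Fcer1g*, the Fc receptor γ chain shared with other receptors, was present at 110 ± 25.6 (SD, n = 3) CPM in SS MAC-1- and 27.5 ± 10.3 (SD, n = 3) CPM in 4 week MAC-1- HSCs. The latter was its lowest mean, with 150.5 ± 62.3 (SD, n = 3) CPM in SS MAC-1low HSCs. At 4 weeks it had 58.4 ± 18.3 (SD, n = 4) CPM in MAC-1low and 53.2 ± 24.35 (SD, n = 3) CPM in MAC-1+ HSCs.

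*Clec1b*, which codes for CLEC-2, had its lowest means in both fractions with low MAC-1. Its mean CPM was 10.2 ± 6.95 (SD, n = 3) for 4 week MAC-1-, 8.88 ± 7.76 (SD, n = 3) for 4 week MAC-1+ and 8.63 ± 7.96 (SD, n = 3) for SS MAC-1- HSCs, and the low fractions were at 0.914 ± 1.07 (SD, n = 4) CPM at 4 weeks and 0.312 ± 0.541 (SD, n = 3) CPM at SS. The single samples were at 17, 3.11 and 10.5 CPM in 4 week MAC-1-, 14.7, 0.0627 and 11.9 CPM in 4 week MAC-1+, 10.2, 15.7 and 0 CPM in SS MAC-1-, 0, 2.06, 1.59 and 0 CPM in 4 week MAC-1low and 0.937, 0 and 0 CPM in SS MAC-1low HSCs. *Clec1b* was at 0 in 5 of the 16 samples. The low fraction did not differ from the negative one past the threshold at 4 weeks (log2 fold change -3.47 ± 2.32 SE, edgeR adjusted p = 0.889) or at SS (log2 fold change -4.76 ± 2.76 SE, edgeR adjusted p = 0.62).

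**Figure D2:**
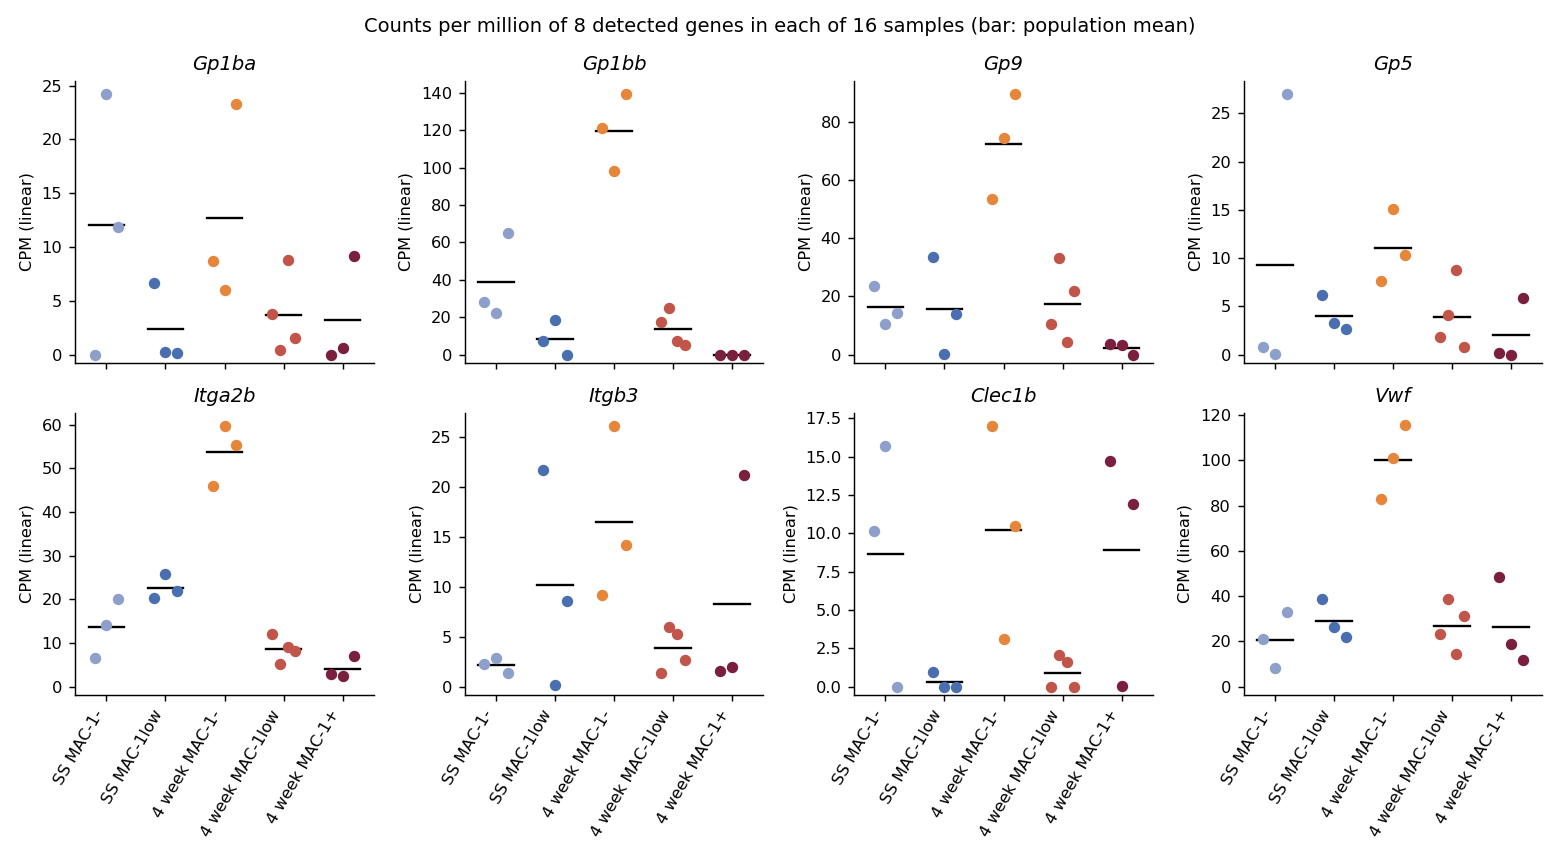
TMM-scaled CPM (linear axis, 1 panel per gene with its own scale) of the 8 detected genes, each point 1 of 16 samples and each bar the mean of a population. In *Gp1bb*, *Gp9*, *Itga2b* and *Vwf* the 4 week MAC-1- samples lie above all other samples. All of the 8 genes but *Itga2b* and *Vwf* hold samples near 0 beside samples above 10 CPM.

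MAC-1+ was set against MAC-1- at 4 weeks to ask how the extremes of regenerating HSCs differed. All 8 tested members had a lower fitted level in the MAC-1+ fraction, with a median log2 fold change of -2.21 against 0.07 over all 13661 genes tested. Without 4 week MAC-1+ replicate 3 the median was -4.34, and the same 2 members were called. The median and the share called over all genes without this sample are not given here. In the remaining 4 week MAC-1+ samples *Gp5* had 3 and 0 counts and *Gp1ba* 0 and 9. *Clec1b* turned to above 0 without 4 week MAC-1- replicate 1 or 4 week MAC-1+ replicate 2. With all samples, *Itga2b* and *Gp1bb* fell, 2 of 8, where edgeR called 3.25% of all genes tested in either direction and 2.06% as lower. No overlap between the samples was seen for 5 members, *Gp1bb*, *Gp5*, *Gp9*, *Itga2b* and *Vwf*, and for 11.5% of all genes in the same direction. DESeq2 and limma-voom with sample weights each called 4 members, *Gp9* and *Vwf* in addition, where they called 11.6% and 6.34% of the genes they tested. *Vwf*, *Itga2b* and *Gp9* are also in a list that the study chose on these samples, so their direction is not independent evidence. The same holds for *Pf4*, *Gata1* and *Gfi1b*, described below, which are in that list too. The megakaryocyte and platelet markers summed to 221 to 320 CPM in the 4 week MAC-1+ and 4103 to 6699 CPM in the 4 week MAC-1- samples. In the latter, *Pf4* made up most of the sum. Of the 5 of these markers that were tested, 4 had a fitted value below 0 and 1 above 0, and edgeR called 1, as lower. The summed HSC markers moved the other way, as given above. The part of both marker groups in the result was not tested. In bulk RNA, fewer cells that express a gene and less RNA of it per cell cannot be told apart.

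Between MAC-1low and MAC-1- HSCs at 4 weeks, all 8 fitted values were again lower in the fraction with MAC-1, with a median of -2.08 against 0.05 over all genes. Both comparisons share the 4 week MAC-1- samples. edgeR called 0 of 8 members and 0.278% of all genes. An unadjusted p below 0.05 was seen for 7.25% of all genes and for 3 members. These were *Itga2b* (log2 fold change -2.63 ± 0.61 SE, edgeR adjusted p = 0.146), *Vwf* (-1.89 ± 0.57 SE, edgeR adjusted p = 0.374) and *Gp1bb* (-3.13 ± 1.17 SE, edgeR adjusted p = 0.576). DESeq2 called 2 members, *Itga2b* and *Vwf*, and limma-voom 3, the same with *Gp1bb*, where they called 4.03% and 2.26% of the genes they tested. The samples did not overlap for 6 members (*Gp1bb*, *Gp9*, *Itga2b*, *Itgb3*, *Vwf* and *Clec1b*) and for 5.53% of all genes in that direction. With edgeR, MAC-1+ and MAC-1low HSCs at 4 weeks were called different in 0 of 8 members and 0.0% of all genes, with 936 genes at an unadjusted p below 0.05. *Gp1bb* had an unadjusted p below 0.05 there (adjusted p = 0.323, edgeR). DESeq2 called *Gp1bb* and limma-voom 0 members, with 3.17% and 0.00732% of all genes.

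**Figure D3:**
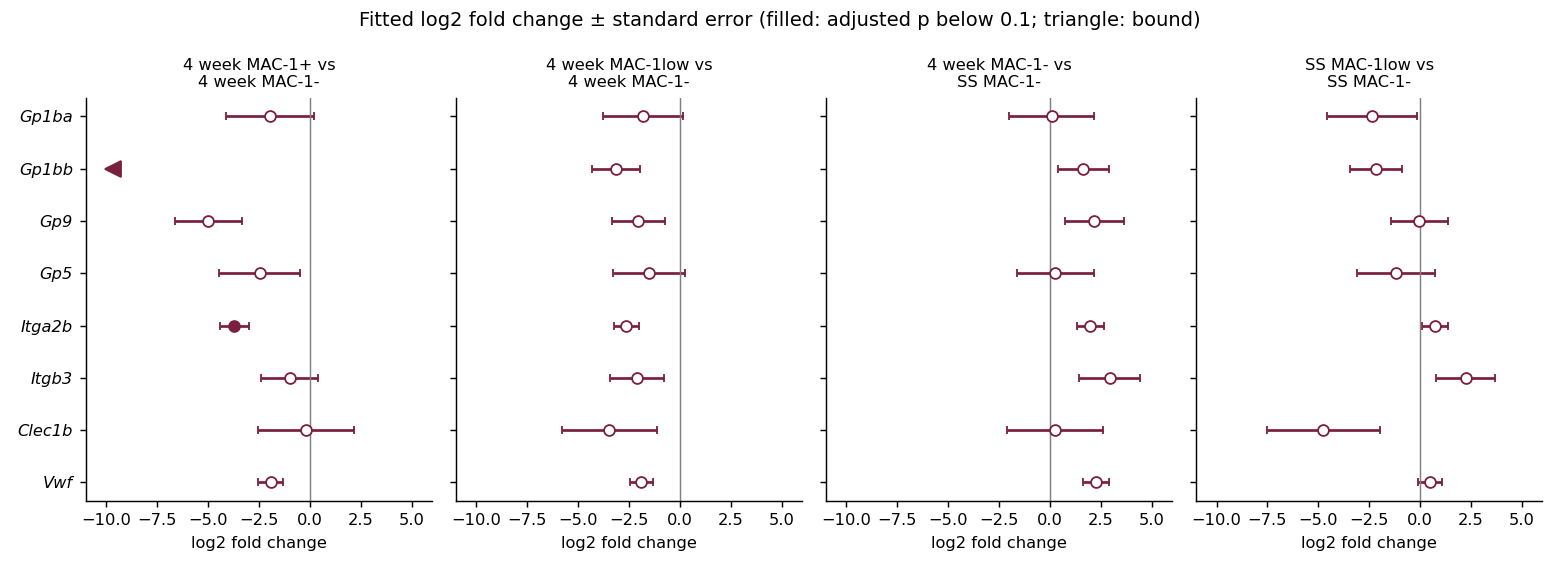
Fitted log2 fold change (points, bars the standard error) of 8 genes in 4 comparisons, filled where the adjusted p of edgeR is below 0.1, with *Gp1bb* in the first panel drawn as a triangle at its bound against the floor. All values of the first pair of panels are below 0 and all of the third are above 0, and the second filled mark beside *Gp1bb* is *Itga2b*.

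Transplantation was read from the MAC-1- fractions. All 8 members had a higher fitted level in 4 week MAC-1- than in SS MAC-1- HSCs (median log2 fold change 1.80 against -0.03 over all genes), but edgeR called 0 of 8 and 0.432% of all genes. Of the 8, 6 were higher without SS MAC-1- replicate 1, and 7 were when any other sample of either group was left out. With the replicate number as a block 6 were higher, *Gp1ba* and *Clec1b* being the others. *Vwf* (2.26 ± 0.63 SE, edgeR adjusted p = 0.223) and *Itga2b* (1.98 ± 0.66 SE, edgeR adjusted p = 0.356) had an unadjusted p below 0.05, where 10.4% of all genes did. DESeq2 called these 2 and limma-voom 0, with 7.81% and 0.608% of all genes. The samples did not overlap for *Gp1bb*, *Gp9*, *Itga2b*, *Itgb3* and *Vwf*, 5 members, and for 9.25% of all genes in that direction. Between the MAC-1low fractions, 4 members were above and 4 below 0, and edgeR called 0 of 8 and 0.0439% of all genes. Of the members, only *Itga2b* had an unadjusted p below 0.05, with a lower level at 4 weeks (-1.39 ± 0.59 SE, edgeR adjusted p = 0.542). Such a p was seen for 8.89% of all genes. *Itga2b* was the 1 member called by DESeq2, with 0 by limma-voom, where these called 4.6% and 0.176% of all genes. For 4 week MAC-1+ against SS MAC-1low HSCs edgeR called 1 of 8, *Gp1bb*, and 1.42% of all genes, and DESeq2 also called *Itga2b* (-2.47 ± 0.67 SE, edgeR adjusted p = 0.122) with 9.41% of all genes, while limma-voom called 0 members and 0.761% of all genes.

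At SS no member passed the test between the fractions. edgeR called 0 of 8 members between SS MAC-1low and SS MAC-1- HSCs and 0.0146% of all genes. An unadjusted p below 0.05 was seen for 0 members and for 9.36% of all genes. DESeq2 and limma-voom called 0 members, with 6.78% and 0.0% of all genes. The log2 fold change of low against negative was 0.73 ± 0.64 SE for *Itga2b* (edgeR adjusted p = 0.823), 0.49 ± 0.60 SE for *Vwf* (edgeR adjusted p = 0.907) and -2.17 ± 1.26 SE for *Gp1bb* (edgeR adjusted p = 0.63). The samples did not overlap for *Itga2b*, higher in SS MAC-1low HSCs, and for 5.94% of all genes in that direction. They did not overlap for *Gp1bb*, lower in SS MAC-1low HSCs, and for 5.39% of all genes in that direction. An interaction term asked whether low and negative fractions differed by another amount at 4 weeks than at SS, and in it edgeR called 0 of 8 and 0.0586% of all genes. *Itga2b* (-3.37 ± 0.89 SE, edgeR adjusted p = 0.338), *Vwf* (-2.38 ± 0.83 SE, edgeR adjusted p = 0.451) and *Itgb3* (-4.34 ± 1.96 SE, edgeR adjusted p = 0.547) had an unadjusted p below 0.05. Such a p was seen for 8.73% of all genes. DESeq2 called 2 members, *Itga2b* (adjusted p = 2.36e-05, DESeq2) and *Vwf* (adjusted p = 0.0673, DESeq2), and 5.28% of all genes. limma-voom called 0 members and 0.117% of all genes.

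Levels of different genes are compared per exon length, as CPM per kb, without *Gp1bb*. In 4 week MAC-1- HSCs *Gp9* stood at 82.4 CPM per kb, against 4.66 for *Gp1ba* and 5.03 for *Gp5*, its partners in the complex. The α chain *Itga2b* was at 9.85 and the β chain *Itgb3* at 2.79 CPM per kb, with *Vwf* at 6.22 and *Clec1b* at 2.00 CPM per kb. In 4 week MAC-1+ HSCs the order was another, with *Gp9* at 2.60, *Clec1b* at 1.74, *Vwf* at 1.64, *Itgb3* at 1.4, *Gp1ba* at 1.19, *Gp5* at 0.914 and *Itga2b* at 0.749 CPM per kb. *Gp9* thus had the highest mean per kb in both populations. Most of *Itgb3*, *Gp1ba* and *Gp5* in 4 week MAC-1+ HSCs came from replicate 3. Without it the means were 3.89 for *Gp9*, 2.10 for *Vwf*, 1.45 for *Clec1b*, 0.486 for *Itga2b*, 0.297 for *Itgb3*, 0.104 for *Gp1ba* and 0.0324 CPM per kb for *Gp5*. *Itga2b* was above *Itgb3* in 4 week MAC-1- HSCs, and in 4 week MAC-1+ HSCs it was below *Itgb3* with replicate 3 and above it without.

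**Figure D4:**
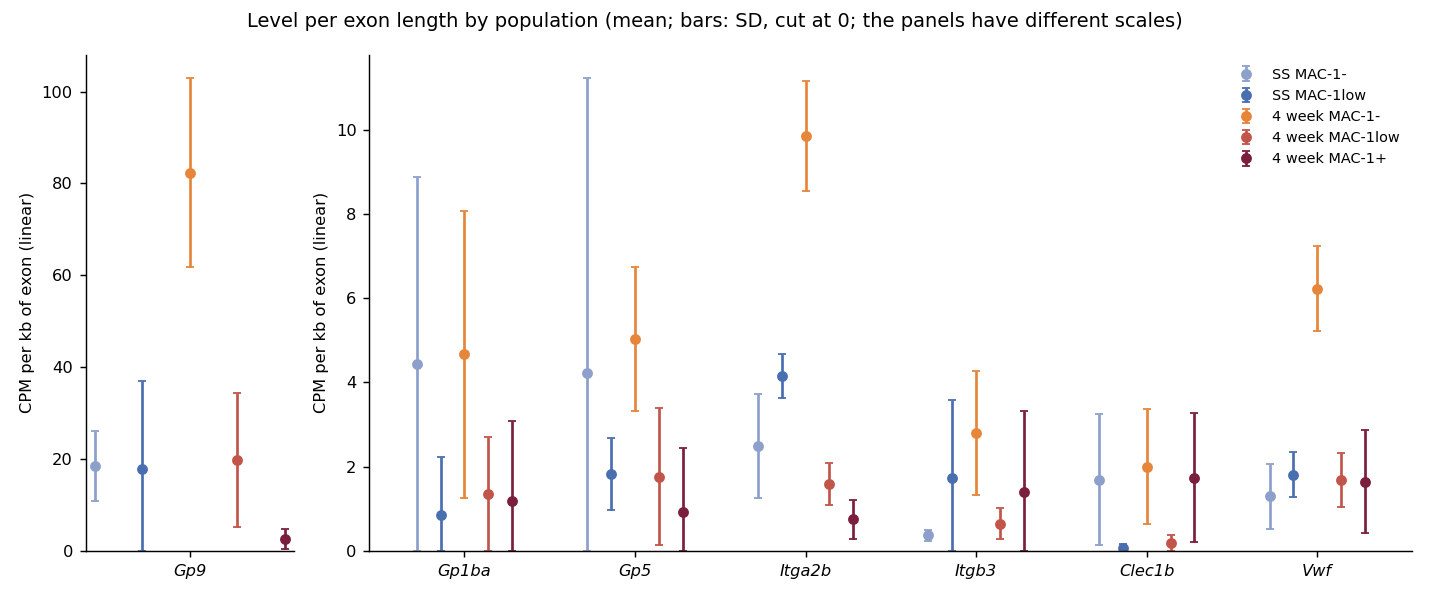
Mean CPM per kb of exon (linear axes, *Gp9* on its own scale) of 7 genes in the 5 populations, with bars for the SD cut at 0. *Gp9*, *Itga2b* and *Vwf* have a 4 week MAC-1- mean, 82.4, 9.85 and 6.22, that stands clear of the SD of the other populations.

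Members were often missing from a single sample while their partners were present. Of the 9 genes, 8 passed 3 counts in all 3 samples of 4 week MAC-1- HSCs, 7 or 8 did in the 4 week MAC-1low, 7 in the SS MAC-1-, 5 to 8 in the SS MAC-1low and 5 or 6 in the 4 week MAC-1+ samples. SS MAC-1low replicate 2 had 463 counts of *Itga2b* and 327 of *Gp1bb* but 2 of *Itgb3* and 2 of *Gp9*, and SS MAC-1- replicate 1 had 323 counts of *Gp9* and 386 of *Gp1bb* but 0 of *Gp1ba*. 4 week MAC-1+ replicate 3 had 232 counts of *Gp1ba*, 149 of *Gp5* and 539 of *Itgb3* with 0 of *Gp9* and *Gp1bb*. Across the 16 samples the 28 pairs of detected members had a median Pearson r of 0.398 in log2 CPM. The r was above 0.5 in 6 pairs, with the highest value for *Gp5* and *Itga2b* (0.67) and for *Gp1bb* and *Itga2b* (0.654), and below 0 for *Gp5* and *Clec1b* (-0.0357). Without 4 week MAC-1+ replicate 3 the median was 0.409 and 9 pairs were above 0.5. The points share the 5 populations and the depth of each sample, so these values are a description.

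Among genes with a mean of at least 50 counts, those whose log2 CPM was most like that of *Itga2b* over the 16 samples were Gm12350 (Pearson r 0.899), *Lat* (0.866), *Rabgap1l* (0.845), *Ddx39* (0.837) and *Slc25a5* (0.83). Most like *Vwf* were *Chchd2* (0.853), *Ppic* (0.809), *Hmgb3* (0.805), *Agpat5* (0.796) and *Spcs3* (0.79). No gene was in both groups of 5. *Lat*, an adaptor that links receptors such as GPVI and CLEC-2 to phospholipase C, was also a member of the signalling list described next.

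The genes around the receptors were counted in lists fixed by name. Of 30 genes that carry or modulate receptor signals, 27 were tested. In MAC-1+ against MAC-1- HSCs at 4 weeks 5 fell and 0 rose (median log2 fold change -0.44 against 0.07 over all genes). Of all genes tested, edgeR called 2.06% as lower there and 3.25% in either direction. *Rap1b*, the small GTPase that activates αIIbβ3, went from 3129 ± 837 (SD, n = 3) to 652 ± 142 (SD, n = 3) CPM (log2 fold change -2.26 ± 0.24 SE, edgeR adjusted p = 0.000201). *Lat* went from 77.9 ± 0.633 (SD, n = 3) to 18.2 ± 5.31 (SD, n = 3) CPM (adjusted p = 0.0292, edgeR), and *F2r*, the thrombin receptor PAR1, from 161 ± 45.7 (SD, n = 3) to 61.9 ± 14 (SD, n = 3) CPM (adjusted p = 0.0571, edgeR). *F2rl2*, the thrombin receptor PAR3, was at 65.4 ± 20.7 (SD, n = 3) CPM in 4 week MAC-1- HSCs and held 4 counts in all 4 week MAC-1+ samples together (adjusted p = 0.0541, edgeR), and *P2ry1*, an ADP receptor and the last of the 5, was at 110 ± 77.0 (SD, n = 3) CPM and held 3 counts there (adjusted p = 0.0713, edgeR). In 4 week MAC-1low HSCs only *Rap1b* of this list fell against 4 week MAC-1- HSCs (1049 ± 251 CPM, SD, n = 4, adjusted p = 0.00848, edgeR), and it rose in 4 week MAC-1- against SS MAC-1- HSCs (1068 ± 197 CPM, SD, n = 3, adjusted p = 0.0107, edgeR). In the other 5 comparisons edgeR called 0 genes of this list. It called 0.278% of all genes in MAC-1low against MAC-1- HSCs at 4 weeks. The share was 0.432% in 4 week MAC-1- against SS MAC-1- HSCs and 0.0% to 1.42% in the other 5 comparisons. Without 4 week MAC-1+ replicate 3, 2 genes of the list, *Lat* and *Rap1b*, were called lower in MAC-1+ than in MAC-1- HSCs. The share of all genes called without this sample is not given here.

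Of 14 megakaryocyte granule and cytoskeleton genes 11 were tested. Their median log2 fold change was -1.93 in MAC-1+ against MAC-1- HSCs at 4 weeks, and 2 fell. Of all genes tested, edgeR called 2.06% as lower there and 3.25% in either direction. *Pf4*, the chemokine of α granules, went from 4951 ± 1309 (SD, n = 3) to 130 ± 25.9 (SD, n = 3) CPM (adjusted p = 4.5e-05, edgeR), and *Plek*, the main protein kinase C substrate of platelets, from 565 ± 131 (SD, n = 3) to 21.8 ± 18.5 (SD, n = 3) CPM (adjusted p = 0.00348, edgeR), and both were also called without 4 week MAC-1+ replicate 3. Both also fell in MAC-1low against MAC-1- HSCs at 4 weeks (adjusted p = 0.00216 and 0.0277, edgeR). *Pf4*, which is also among the megakaryocyte markers, rose in 4 week MAC-1- against SS MAC-1- HSCs (adjusted p = 0.00678, edgeR). In 4 week MAC-1+ against SS MAC-1low HSCs *Pf4* and the platelet granule protein gene *Mmrn1* fell (adjusted p = 0.0904 and 0.0936, edgeR). These calls, near the threshold, were not followed without 4 week MAC-1+ replicate 3.

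All 12 megakaryocyte transcription factors were tested, and their median, -0.12 in MAC-1+ against MAC-1- HSCs at 4 weeks, was near that of all genes. In this comparison 3 fell and 1 rose, where edgeR called 2.06% of all genes as lower and 3.25% in either direction. *Gata1*, the factor of megakaryocyte and red cell differentiation, was at 39.5 ± 12.4 (SD, n = 3) CPM in 4 week MAC-1- HSCs and at a count of 0 in all 4 week MAC-1+ samples (adjusted p = 0.0468, edgeR). *Gfi1b*, a repressor needed for platelet production, went from 109 ± 55.0 (SD, n = 3) to 15.5 ± 1.33 (SD, n = 3) CPM and *Mef2c* from 441 ± 88.8 (SD, n = 3) to 191.5 ± 31.6 (SD, n = 3) CPM (adjusted p = 0.094 for both, edgeR). *Lyl1* rose from 9.87 ± 4.80 (SD, n = 3) to 32.3 ± 6.97 (SD, n = 3) CPM (adjusted p = 0.0969, edgeR). Without 4 week MAC-1+ replicate 3, edgeR called 0 of the 12. The share of all genes called without this sample is not given here, so the loss cannot be set against that of other genes. *Lyl1* fell in 4 week MAC-1- against SS MAC-1- HSCs (adjusted p = 0.0805, edgeR), the 1 call of this list outside the first comparison. There edgeR called 0.432% of all genes. Of 13 ligands and sheddases of the receptors, 6 were tested and 0 were called in any of the 8 comparisons by edgeR. Over all genes edgeR called 0.0% to 3.25% in these comparisons. The sheddases *Adam10* and *Adam17*, which cleave GPVI and GPIbα, had log2 fold changes of 0.26 and -0.06 in MAC-1+ against MAC-1- HSCs at 4 weeks (standard errors 0.34 and 0.76, adjusted p = 0.848 and 0.994, edgeR).

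**Figure D5:**
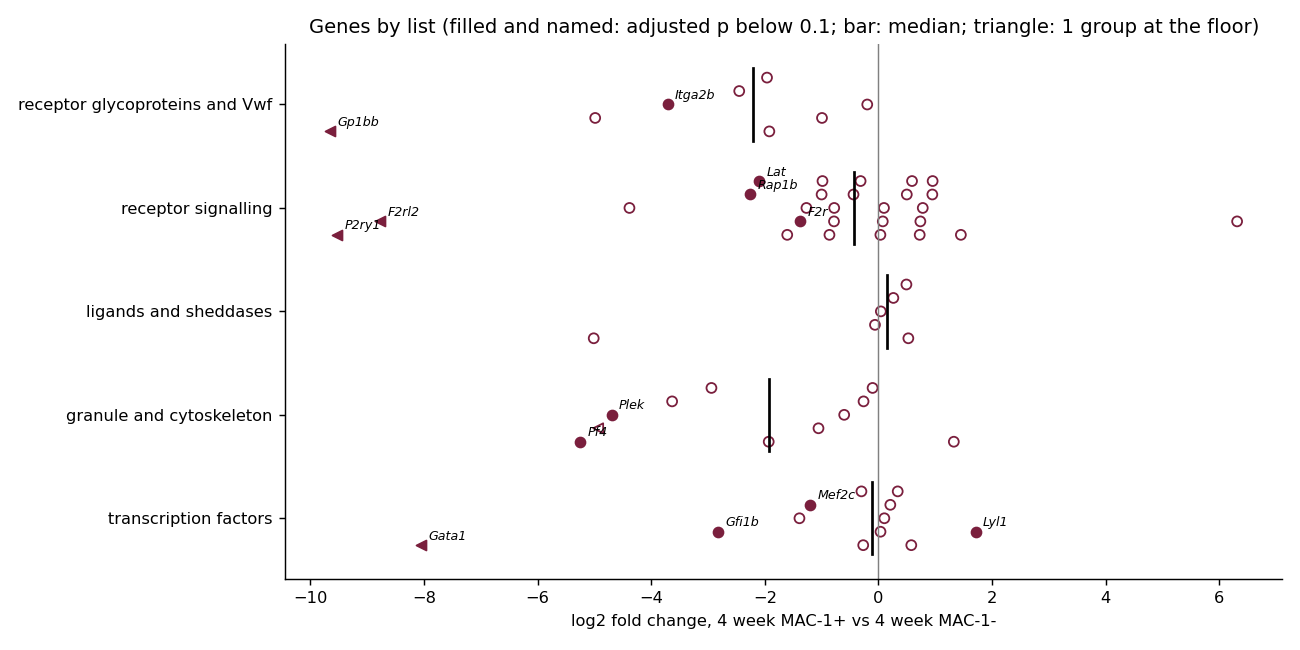
Log2 fold change of MAC-1+ against MAC-1- HSCs at 4 weeks for the tested genes of 5 lists, filled and named where the adjusted p of edgeR is below 0.1, with a bar at the median of each list and triangles where the mean of 1 group is at or under 3 counts per sample, drawn at the ratio to that floor. The medians are -2.21 for the receptor genes and *Vwf*, -1.93 for granule and cytoskeleton genes, -0.44 for signalling genes, -0.12 for transcription factors and 0.15 for ligands and sheddases.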

How the data were processed

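RNA of sorted HSCs was amplified with SMART-Seq v4, made into Nextera XT libraries and sequenced on a NextSeq. The authors deposited 1 table of counts, whole reads per gene and sample without normalization, made with nf-core RNA-seq and STAR. DESeq2 is named in the processing notes of the submitters. The kit carries no molecular identifiers, so PCR copies count as reads, and strand is not known to have been used. The counting program, genome build and annotation used were not given in the sources used here.

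Samples were grouped by their labels and columns matched by title. The main test was run with edgeR 4.0.16 in R 4.3.3: TMM factors, the default filter on low counts, and a robust quasi-likelihood test with all 16 samples in 1 model, a mean per population and a contrast per comparison. Adjusted p are Benjamini-Hochberg values over all genes tested, and a gene was called below 0.1. Standard errors (SE) of log2 fold changes were not taken from the model. They are the absolute log2 fold change over the square root of the F statistic of the test, and are approximate. Log2 CPM used a prior count of 2. Exon lengths are the union of exons in GENCODE M21. Alternatives were DESeq2 1.42.0, limma-voom (limma 3.58.1) with sample weights, DESeq2 size factors in edgeR, no filter, the replicate number as a block, and leaving out each sample. The main edgeR test, DESeq2 and limma-voom were first tried on simulated data, for MAC-1+ against MAC-1- at 4 weeks and for the SS fractions. The other comparisons and settings were not. Plots were drawn with matplotlib 3.10.9.

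The 9 genes and the lists were chosen with earlier results of these data known. Named are all 9 members, up to 4 genes per list with the lowest p among those called between MAC-1+ and MAC-1- HSCs at 4 weeks, markers where a level is given, and the 5 genes most like *Itga2b* and *Vwf*. *Fcer1g*, *P2ry1*, *Mmrn1*, *Adam10*, *Adam17*, *Sept5*, Gm49601, *Clec9a* and *Itgam* were added outside this rule. One listed symbol of the signalling genes was not found under that name.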

Additional observations from a re-analysis of the deposited data

How the results depend on the processing

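The number of members called changed most with the test. With DESeq2 it was 4 in MAC-1+ against MAC-1- HSCs at 4 weeks, 2 in MAC-1low against MAC-1- and 1 in MAC-1+ against MAC-1low at that time, 2 in 4 week MAC-1- against SS MAC-1-, 1 in 4 week MAC-1low against SS MAC-1low, 2 in 4 week MAC-1+ against SS MAC-1low and 2 in the interaction. With limma-voom it was 4, 3 and 0 in the first, second and sixth of these. Without the filter on low counts it was 1 in the first and 1 in the third, and DESeq2 size factors in edgeR changed none of the 8 counts. Leaving out 1 sample gave 2 to 3 members in the first, 0 to 1 in the third, where *Gp1bb* passed without SS MAC-1low replicate 3 (adjusted p = 0.0121, edgeR), and 0 to 1 in the sixth, and changed no other count. Of values that were not called, some changed direction. *Vwf* between MAC-1+ and MAC-1low HSCs at 4 weeks was 0.0151 with DESeq2, 0.0125 with DESeq2 size factors and -0.82 to 0.33 with a sample left out, and *Gp1bb* in the interaction was 1.53 with limma-voom and -1.57 to 0.25 with a sample left out. *Gp5* between the SS fractions went from -1.21 to 2.18 with limma-voom and 1.5 with the replicate block, and *Itgb3* in 4 week MAC-1+ against SS MAC-1low HSCs from -0.30 to 0.45 and *Gp1ba* in the interaction from 0.57 to -0.68 with limma-voom. With a sample left out, log2 fold changes ran from -0.76 to 0.41 for *Clec1b* in MAC-1+ against MAC-1- HSCs at 4 weeks, from -1.23 to 0.54 for *Gp9* between the SS fractions, from -0.45 to 1.33 for *Gp9* and -0.36 to 0.14 for *Vwf* between the MAC-1low fractions, from -0.93 to 0.20 for *Vwf* in 4 week MAC-1+ against SS MAC-1low HSCs, and from -0.71 to 1.09 for *Gp1ba*, -0.334 to 4.67 for *Gp5* and -0.347 to 1.00 for *Clec1b* in 4 week MAC-1- against SS MAC-1- HSCs. The other uncalled values of *Gp1ba*, *Gp5*, *Itgb3* and *Clec1b* in the remaining comparisons were mostly not followed with samples left out. The values of the lists, levels per kb, correlations, medians and bounds with samples left out were chosen after seeing the data. The causes were not tested.

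Deviations from the population means of same-numbered samples correlated between -0.0249 and 0.0397 over 30 pairs. Samples with different numbers correlated between -0.026 and 0.0277 over 72 pairs. The sample codes of the 4 week samples do not everywhere follow the replicate numbers. Pairing by anything other than the replicate number was not tested, by this check or by the block. With the replicate block the members called were 2 in MAC-1+ against MAC-1- HSCs at 4 weeks and 0 in 4 week MAC-1+ against SS MAC-1low HSCs, *Gp9* between the MAC-1low fractions was -0.0569, *Gp1ba* and *Clec1b* in 4 week MAC-1- against SS MAC-1- HSCs were -0.756 and -0.0814, *Gp1ba* in 4 week MAC-1+ against SS MAC-1low HSCs went from 0.48 to -0.50, and all other member counts stayed as they were. Over all genes the calls went with the block from 444 to 327 in the first comparison, from 38 to 8 in the second, from 59 to 26 in the fourth, from 6 to 0 in the fifth, from 194 to 101 in the sixth, from 8 to 0 in the interaction and from 2 to 0 between the SS fractions. Over all genes, edgeR, DESeq2 and limma-voom called 444, 1605 and 866 in the first, 38, 557 and 309 in the second, 0, 452 and 1 in the third, 59, 1078 and 83 in the fourth, 6, 657 and 24 in the fifth, 194, 1299 and 104 in the sixth, 8, 753 and 16 in the interaction and 2, 936 and 0 between the SS fractions. Of the 8 tested members, 5 were at 0 in at least 1 sample, among them *Gp1bb* and *Gp9* with up to 2591 and 1965 counts in others.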
